A study of Mus musculus with 32 samples.

Results

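The Gadd45 family of the mouse consists of Gadd45a, Gadd45b and Gadd45g, and these 3 genes were followed among the 54532 genes counted in the kidney of cisplatin-treated mice. Gadd45g was selected on these same counts, for a response that differed between male and female mice, and the other 2 genes were added by family name. The values of Gadd45g are therefore given as a description, with no test of a difference between groups, and such tests were run on Gadd45a and Gadd45b. Kidney RNA came from 32 male and female C57BL/6 mice, 6 to 8 weeks of age, with 4 mice in each of 8 groups: Day 0, and Day 2, Day 3 and Day 5 after a single intraperitoneal injection of cisplatin at 20 mg/kg. Each library is labelled as 1 mouse. Whole kidney tissue was read, so that fewer cells of a type and less RNA per cell cannot be told apart. The labels list cisplatin for the female Day 0 mice too and no drug for the male Day 0 mice, whereas the study describes Day 0 mice as healthy, and they are treated here as not injected.

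Gadd45 proteins are small acidic nuclear proteins with no enzyme activity of their own, whose transcripts are induced by growth arrest signals and DNA damage. They bind and activate the kinase MTK1 (Map3k4) upstream of p38 and JNK, bind Cdk1 with cyclin B1, the Cdk inhibitor p21 and the replication clamp PCNA, and take part in DNA repair and in the removal of methyl groups from DNA. Gadd45a is a classical target of p53, Gadd45b is induced by NF-kB and TGF-beta, and Gadd45g was first described as a cytokine-induced gene. Cisplatin is a platinum drug that crosslinks DNA and injures the proximal tubule of the kidney.

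Libraries held between 16502107 and 35961325 counted reads. The share of reads on the mitochondrial genome lay between 4.49% and 23.97% in the libraries of Day 0, Day 2 and Day 3. At Day 5 it was 42.5%, 78.9%, 79.8% and 79.7% in the male mice and 31.6%, 77.9%, 22.2% and 9.30% in the female mice. In the library labelled male Day 5 mouse 1, 4153 reads of the female-specific transcript Xist stood beside 387 reads of Y-linked genes, against its label. The male Day 5 changes of the 3 members from Day 0 are also given without that library, as are those of some other genes. Smaller mixtures of Xist and Y-linked reads occurred in other libraries. The female Day 0 libraries held 5 to 221 Y-linked reads, with 221 in mouse 1 beside 4181 of Xist, and the later female libraries held 0. Male Day 0 mouse 4 had 242 reads of Xist and male Day 5 mouse 2 had 260. Female Day 0 mouse 2 held 9330 CPM (read counts scaled by library size) of 4 hepatocyte genes in sum, against 46.9 to 330 CPM in the other female Day 0 libraries. Hemoglobin and Alas2 transcripts summed to between 365 and 2402 CPM in the Day 0 libraries and to between 0.811 and 149 CPM at Day 2 and Day 3. The 5 proximal tubule markers, which include the endocytic receptor megalin (Lrp2), were detected in all groups, with sums from 7223 to 8285 CPM in male Day 0 mice and from 309 to 3270 CPM in male Day 5 mice.

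Each member lies in its own small gene of 4 exons (transcript 201) and all 3 passed the filter on low counts. Gadd45a (ENSMUSG00000036390) lies on the minus strand at chr6:67035096-67037457 of GRCm38, with an exonic length of 1764 bases, and overlaps 1 gene on the opposite strand, E230016M11Rik. As the strandedness of the counting is not given in the sources used here, reads of that gene may be among those of Gadd45a. Gadd45b (ENSMUSG00000015312) lies on the plus strand at chr10:80930073-80932204, with 1589 exonic bases, and Gadd45g (ENSMUSG00000021453) on the plus strand at chr13:51846678-51848468, with 1173 exonic bases. Read counts per library ran from 169 to 1353 for Gadd45a, from 47 to 643 for Gadd45b and from 479 to 9696 for Gadd45g.

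The 200 bases that lie 250 to 51 bases upstream of each RefSeq transcript start are shown because the 3 genes, although paralogs, had different time courses. They are RefSeq promoter sequences of GRCm38.p6, written 5′ to 3′ on the strand of the gene, at chr6:67037458-67037657 (minus strand), chr10:80929841-80930040 and chr13:51846425-51846624. Capitals mark matches, on either strand, to a CCAAT box (CCAAT), an octamer (ATTTGCAT), an E-box (CACGTG) or a GC box (GGGCGG), motifs that were picked after the sequences had been seen.
Gadd45a: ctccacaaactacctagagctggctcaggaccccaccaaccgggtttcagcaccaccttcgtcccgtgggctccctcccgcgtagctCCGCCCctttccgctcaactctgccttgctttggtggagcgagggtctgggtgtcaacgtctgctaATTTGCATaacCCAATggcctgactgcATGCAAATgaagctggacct
Gadd45b: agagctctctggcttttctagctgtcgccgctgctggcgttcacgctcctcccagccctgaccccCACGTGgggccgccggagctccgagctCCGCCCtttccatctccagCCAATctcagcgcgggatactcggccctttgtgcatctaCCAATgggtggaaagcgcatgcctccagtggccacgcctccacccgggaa
Gadd45g: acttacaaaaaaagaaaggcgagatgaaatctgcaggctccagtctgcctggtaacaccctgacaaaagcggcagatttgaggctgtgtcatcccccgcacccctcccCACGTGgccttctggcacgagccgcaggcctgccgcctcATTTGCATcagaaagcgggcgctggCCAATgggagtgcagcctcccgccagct

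A CCAAT box was present in all 3 windows, in 2 copies in that of Gadd45b, as in 28.4% of the 32851 promoter windows of the same length. The octamer stood in the Gadd45a window, where both of its orientations flank the CCAAT box, and once in the Gadd45g window, and 1.32% of all windows held it. The E-box was found in the Gadd45b and Gadd45g windows and in 4.34% of all windows. A GC box was found in the Gadd45a and Gadd45b windows and in 24.6% of all windows. The cAMP response element TGACGTCA (0.828% of all windows) and the AP-1 site TGANTCA (5.57%) were searched for too and matched none of the 3 windows. No letter belongs to more than 1 match, and all matches are descriptions of letters.

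Gadd45g was the most abundant member per unit of length and had opposite courses in the sexes. In male Day 0 mice its level was 57.4, 29.1, 31.97 and 39.1 CPM (mean 39.4 ± 12.7, SD, n = 4). In female Day 0 mice it was 124, 267, 171 and 112 CPM (168 ± 70.2). The lowest female thus stood above the highest male, and the female mean was 4.28-fold the male mean.

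After cisplatin the female level was below its starting range at each day. It was 55.1, 54.6, 63.3 and 70.6 CPM at Day 2 (60.9 ± 7.59). At Day 3 the female mice had 68.9, 45.7, 47.4 and 49.2 CPM (52.8 ± 10.8). At Day 5 they had 89.0, 57.6, 101 and 59.1 CPM (76.7 ± 21.7), so that all 4 mice of each later day were below every female Day 0 mouse. The log2 fold change of female mice against Day 0 was -1.47 (SE 0.292) at Day 2, -1.69 (SE 0.296) at Day 3 and -1.14 (SE 0.319) at Day 5. These 3 comparisons share the Day 0 mice, as do those of the male mice. As Gadd45g was selected on these counts, the SEs of its changes are not to be read as a test.

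The male means lay above that of Day 0 at each day. The level was 81.5, 83.0, 50.8 and 54.2 CPM at Day 2 (67.4 ± 17.2). At Day 3 it was 68.7, 40.2, 54.8 and 74.9 CPM (59.6 ± 15.5), and at both days 2 of the 4 mice stood above the highest male Day 0 mouse. At Day 5 it was 79.7, 113, 96.7 and 110.3 CPM (99.9 ± 15.3), above all male Day 0 mice. The log2 fold changes in male mice were 0.79 (SE 0.256), 0.60 (SE 0.257) and 1.41 (SE 0.247) at Day 2, Day 3 and Day 5. Without the library labelled male Day 5 mouse 1 the Day 5 value was 1.52. With the total counts as library size and no scaling factor it was 0.096, while the median of all genes moved to -1.15 under that scaling. Marker sums moved with the male Day 5 group too. The 2 collecting duct markers were at 746 to 1415 CPM, against 352 to 749.6 CPM at Day 0, and the proximal tubule markers at 309 to 3270 CPM, against 7223 to 8285 CPM. Their part in the Gadd45g values was not tested.

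The sexes were apart at Day 0 and overlapped at Day 2, Day 3 and Day 5. At Day 2 and Day 3 the male over female log2 fold changes were 0.14 (SE 0.194) and 0.15 (SE 0.208), and at Day 5, when 2 of 4 males stood above the highest female and the means differed by 23.2 CPM (larger SD 21.7 CPM), the value was 0.44 (SE 0.229), or 0.59 without the library labelled male Day 5 mouse 1. At Day 0 it was -2.11 (SE 0.338). The difference between the sexes in the change from Day 0 was 2.23, 2.26 and 2.52 on the log2 scale at Day 2, Day 3 and Day 5. Without female Day 0 mouse 2, which had the highest Gadd45g level and the high hepatocyte genes, these values were 1.91, 1.94 and 2.21, and the Day 0 difference was -1.82. All of these values come from the counts on which Gadd45g was selected. Several marker sums moved with the female groups. Erythroid markers were at 365 to 2402 CPM in female Day 0 mice and at 2.85 to 72.7 CPM at Day 2 and Day 3. The proximal tubule markers were at 5849 to 8556 CPM at Day 0 and at 1720 to 5584 CPM at Day 5, with no overlap, and had a median of 2790 CPM at Day 3, where the ranges overlapped. Collecting duct markers had a median of 1002 CPM (498 to 1220) at Day 0 and of 465, 687 and 763 CPM at the later days, with overlapping ranges. Adrenal cortex markers were at 2.85 to 178 CPM at Day 0 and at 2.54 to 4.11 CPM at Day 2. At Day 3 they were at 6.94 to 1418 CPM (median 577), and at Day 5 at 362 to 890 CPM. The part of these shifts in the Gadd45g values was not tested.

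**Figure D1:**
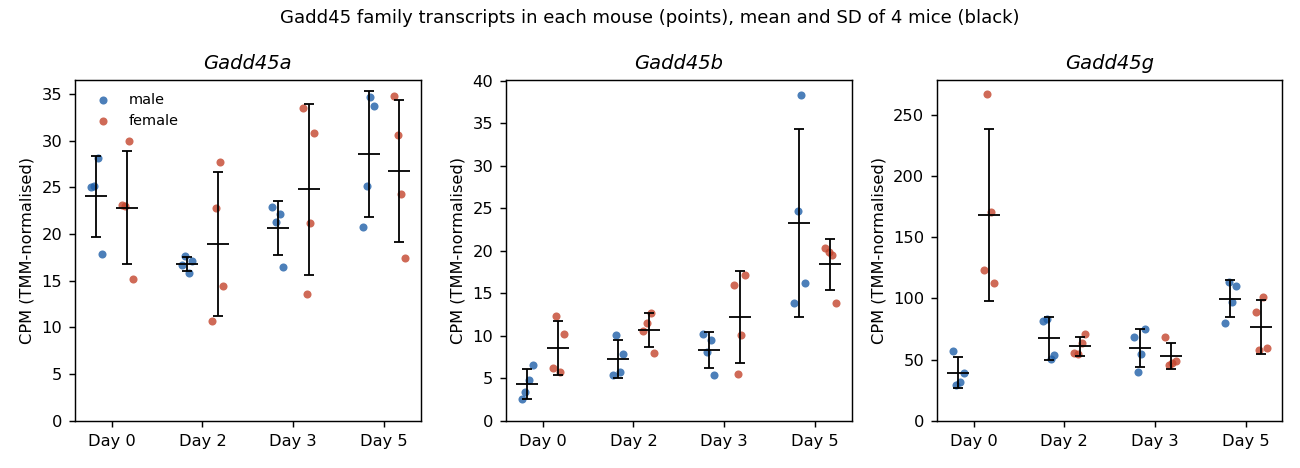
Level of Gadd45a, Gadd45b and Gadd45g (CPM, linear axes from 0) in each mouse by day, male mice in blue and female mice in red, with the mean and SD of 4 mice in black. For Gadd45g the female Day 0 mice (112 to 267 CPM) stand above all other groups except that male Day 5 mice reach 113 CPM. Gadd45b is highest at Day 5, and the groups of Gadd45a overlap widely except for male Day 2 against male Day 0.

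Gadd45b, the member known as a target of NF-kB, was upregulated in male mice at Day 5. In male Day 0 mice it was 2.55, 3.35, 4.85 and 6.56 CPM (mean 4.33 ± 1.77, SD, n = 4). At Day 5 it was 13.9, 24.7, 38.4 and 16.3 CPM (23.3 ± 11.1). Every Day 5 male was above every Day 0 male. The SD of the Day 5 males in CPM was the largest of the 8 groups. On the log2 scale it was 0.655, below the 0.743 of female Day 3 mice. The log2 fold change was 2.49 (SE 0.407, adjusted p = 0.00872, edgeR quasi-likelihood test with Benjamini-Hochberg adjustment over all genes), a 5.61-fold increase. In that comparison 8.98% of the 14969 genes tested passed as higher. Gadd45b was the only tested member that passed, and this was its only call among 13 contrasts. The call held in all 8 fits that left out 1 mouse, with log2 fold changes from 2.13 to 2.73, and it was 2.68 (adjusted p = 0.00200) without the library labelled male Day 5 mouse 1.

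The Day 5 increase in male mice stood beside large shifts of the libraries. The mitochondrial share of these 4 libraries was 42.5% to 79.8%, and leaving out mitochondrial genes before scaling gave 2.46 (adjusted p = 0.00938). With total counts and no scaling factor the value was 1.13 (adjusted p = 0.0796), with the median of all genes at -1.15. The 6 leukocyte markers, none of them at 0 in all libraries, summed to between 18.1 and 211 CPM at Day 5 and to between 10.6 and 21.9 CPM at Day 0. Markers of the collecting duct summed to between 746 and 1415 CPM, against 352 to 749.6 CPM at Day 0, and erythroid markers to between 185 and 4940 CPM, against 391 to 1932 CPM. The 4 adrenal cortex markers summed to between 20.9 and 105.6 CPM at Day 5 and to between 0.730 and 11.9 CPM at Day 0, with no overlap. The proximal tubule markers summed to between 309 and 3270 CPM against 7223 to 8285 CPM, and the 4 hepatocyte markers to between 7.90 and 33.2 CPM against 74.3 to 275 CPM, both below all Day 0 males. The 2 podocyte markers had a median sum of 15.8 CPM (12.2 to 69.5) at Day 5 and 55.6 CPM (43.8 to 63.3) at Day 0. For the 4 adipocyte markers it was 477 CPM (218 to 836) at Day 5 and 118 CPM (114 to 631) at Day 0. The part of these shifts in the Gadd45b value was not tested.

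At the earlier days the male level lay between. At Day 2 it was 5.44, 10.2, 5.70 and 7.84 CPM (7.29 ± 2.20), and the log2 fold change was 0.76 (SE 0.342, adjusted p = 0.178, edgeR). At Day 3 it was 10.2, 8.07, 9.57 and 5.44 CPM (8.32 ± 2.11), with a log2 fold change of 0.94 (SE 0.327, adjusted p = 0.0659). Both groups overlapped Day 0, and neither difference passed. The Day 3 value passed without male Day 0 mouse 3 (1.01, adjusted p = 0.0497) or male Day 0 mouse 4 (1.20, adjusted p = 0.0226), and in DESeq2 (0.93, adjusted p = 0.0297).

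In female mice no change of Gadd45b passed the test, and the mean at Day 5 was the highest. The Day 0 females had 6.20, 12.3, 5.78 and 10.2 CPM (8.62 ± 3.17). At Day 2 they had 10.5, 11.5, 12.6 and 8.05 CPM (10.7 ± 1.96), and at Day 3 they had 15.9, 5.56, 10.1 and 17.2 CPM (12.2 ± 5.39). Neither day was separated from Day 0, with log2 fold changes of 0.31 (SE 0.300, adjusted p = 0.540) and 0.48 (SE 0.391, adjusted p = 0.408). At Day 5 they had 20.4, 19.9, 19.5 and 13.9 CPM (18.4 ± 3.03). All 4 were above the highest Day 0 female, and the log2 fold change was 1.09 (SE 0.299), but it did not pass after adjustment (adjusted p = 0.169, edgeR), in a comparison in which 0.185% of genes passed as higher and 0.0738% as lower. It passed in DESeq2 (adjusted p = 0.0249), in 1 fit over all 8 groups (adjusted p = 0.0377) and without female Day 0 mouse 4 (1.18, adjusted p = 0.0357). The adrenal cortex markers summed to between 362 and 890 CPM in the Day 5 females and to between 2.85 and 178 CPM in the Day 0 females, with no overlap. The proximal tubule markers summed to between 1720 and 5584 CPM against 5849 to 8556 CPM, again with no overlap, and the part of these shifts in the Gadd45b value was not tested.

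**Figure D2:**
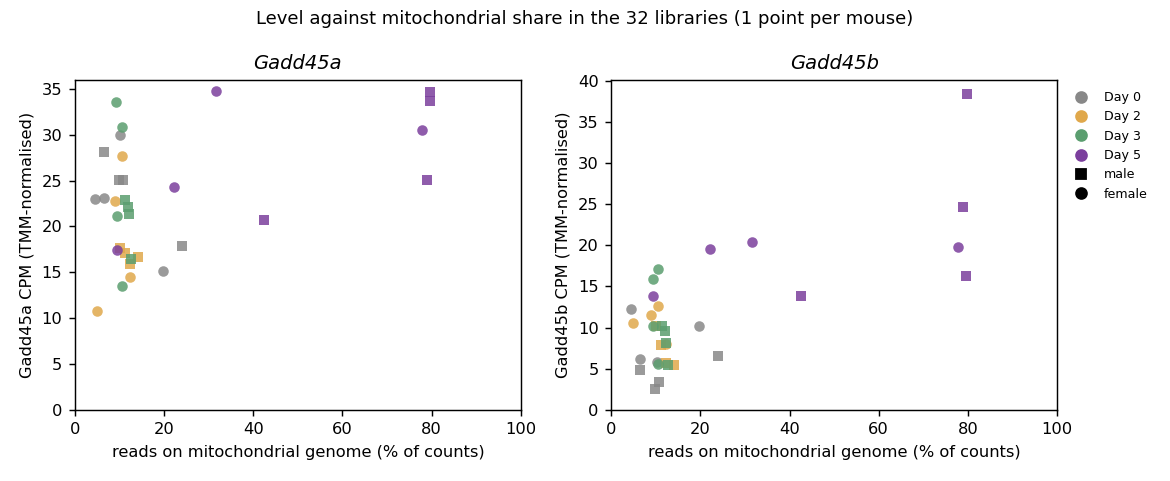
Level of Gadd45a (left) and Gadd45b (right) in CPM against the percentage of counts on the mitochondrial genome in each of the 32 libraries, coloured by day, with squares for male and circles for female mice. The Day 5 libraries spread from 9.30% to 79.8%, and their Gadd45b levels run from 13.9 to 38.4 CPM.

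The sexes were compared for Gadd45b at each day. Male over female log2 fold changes were -1.01 (SE 0.382, adjusted p = 0.501) at Day 0, -0.57 (SE 0.233, adjusted p = 0.288) at Day 2, -0.58 (SE 0.354, adjusted p = 0.272) at Day 3 and 0.39 (SE 0.310, adjusted p = 0.502) at Day 5 (edgeR). None passed, where 0.449%, 1.47%, 21.3% and 0.276% of genes did at the 4 days. The Day 3 difference passed without female Day 3 mouse 2 (-0.81, adjusted p = 0.0334). Without the library labelled male Day 5 mouse 1 the Day 5 difference was 0.63 (adjusted p = 0.139). The difference between the sexes in the change from Day 0 was 0.43 (SE 0.455), 0.44 (SE 0.527) and 1.38 (SE 0.502) for Day 2, Day 3 and Day 5, with adjusted p of 0.9999, 0.966 and 0.209. In these interaction tests edgeR called 0% of 17467 genes, 0.0114% and 0.243%. The 0 genes at Day 2 stood beside 738 genes at an unadjusted p under 0.05 and 21 genes called by DESeq2.

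Gadd45a, the p53 target of the family, showed no change that passed the test in any of the 13 contrasts (edgeR, with 1 contrast at an unadjusted p under 0.05 and 1 call by DESeq2, both male Day 2 against Day 0). Of all genes, 0.0738% to 13.1% passed in a given direction in the contrasts of a day against Day 0. Between the sexes 0.276% to 21.3% passed, and in the interactions 0% to 0.243%, so few genes passed in most contrasts. Male Day 0 mice had 25.1, 25.1, 28.1 and 17.9 CPM (mean 24.1 ± 4.35, SD, n = 4), and female Day 0 mice 23.1, 23.0, 30.0 and 15.2 CPM (22.8 ± 6.06). The sexes overlapped at Day 0. At Day 2 the male mice had 16.7, 17.6, 15.9 and 17.1 CPM (16.8 ± 0.755), all below the lowest Day 0 male and closer to one another than in any other group. The log2 fold change was -0.51 (SE 0.162, adjusted p = 0.0881), and it passed in DESeq2 (-0.51, adjusted p = 0.0341) and without male Day 0 mouse 4 (-0.62, adjusted p = 0.0307).

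The later male groups overlapped Day 0. At Day 3 the male mice had 22.9, 21.3, 22.1 and 16.4 CPM (20.7 ± 2.90), a log2 fold change of -0.22 (SE 0.169, adjusted p = 0.357), or 0.072 with total counts and no scaling factor. At Day 5 they had 20.8, 25.1, 34.7 and 33.7 CPM (28.6 ± 6.74), a log2 fold change of 0.31 (SE 0.234, adjusted p = 0.375), or 0.45 (adjusted p = 0.161) without the library labelled male Day 5 mouse 1. The direction at Day 5 depended on the scaling, as total counts with no scaling factor gave -1.02 (adjusted p = 0.0928) beside a median of all genes of -1.15.

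In female mice Gadd45a spread widely at each day. At Day 2 it was 10.7, 22.8, 27.7 and 14.4 CPM (18.9 ± 7.74), and at Day 3 it was 33.5, 13.6, 21.2 and 30.8 CPM (24.8 ± 9.17). At Day 5 it was 34.8, 30.6, 24.3 and 17.4 CPM (26.8 ± 7.58). All 3 groups overlapped Day 0, with log2 fold changes of -0.27 (SE 0.322), 0.11 (SE 0.308) and 0.23 (SE 0.277) and adjusted p of 0.620, 0.829 and 0.691. Their directions were not stable, as total counts with no scaling factor gave 0.11 at Day 2 and -0.045 at Day 5, and the Day 3 value ran from -0.069 (without Day 3 mouse 1) to 0.31 (without Day 3 mouse 2). Male over female log2 fold changes over the 4 time points were 0.063, -0.19, -0.29 and 0.14, with SE from 0.249 to 0.267 and adjusted p of 0.977, 0.784, 0.470 and 0.792. The differences between the sexes in the change from Day 0 were -0.26, -0.35 and 0.061 (SE 0.364 to 0.374, adjusted p 0.9999, 0.955 and 0.963). With 1 mouse left out, the sign turned for the sexes at Day 0 (-0.090 to 0.23) and Day 2 (-0.39 to 0.053) and for the difference in the change to Day 2 (-0.45 to 0.012) and Day 5 (-0.10 to 0.21).

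**Figure D3:**
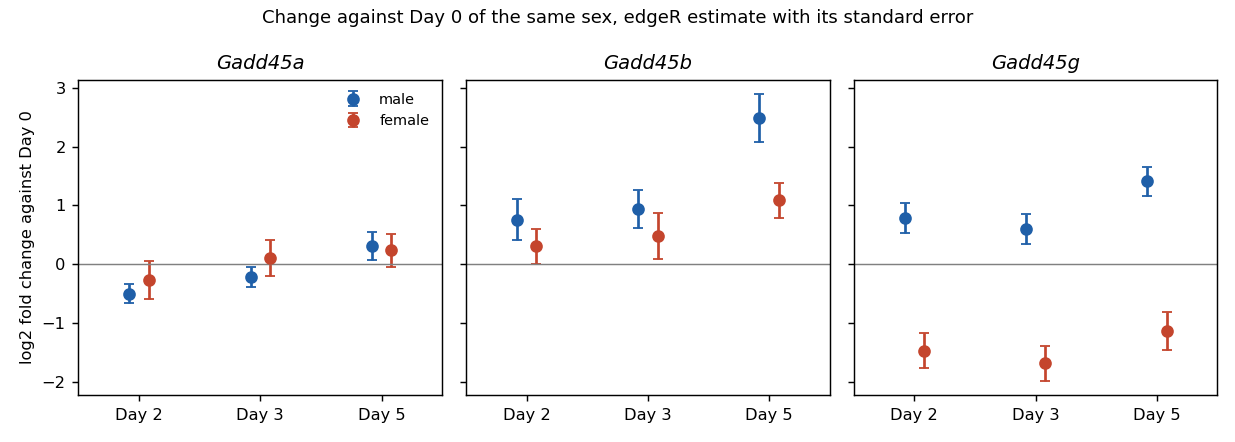
Log2 fold change of each member at Day 2, Day 3 and Day 5 against Day 0 of the same sex (edgeR estimate, n = 4 mice per group), male mice in blue and female mice in red. Bars show the standard error, which was derived from the test statistic. Values of Gadd45g lie above 0 in male mice (0.60 to 1.41) and below 0 in female mice (-1.69 to -1.14), while Gadd45b reaches 2.49 in male Day 5 mice.

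Ordered by mean level, the 8 groups of Gadd45a ran from male Day 5 (28.6 CPM) to male Day 2 (16.8 CPM), and no neighbours in that order differed by more than the larger of their SDs. For Gadd45b the order ran from male Day 5, female Day 5, female Day 3, female Day 2, female Day 0, male Day 3 and male Day 2 down to male Day 0. Neighbours there differed by more than the larger SD at 2 steps, between female Day 5 and female Day 3 (6.20 CPM) and between male Day 2 and male Day 0 (2.96 CPM). For Gadd45g the order ran from female Day 0, male Day 5, female Day 5, male Day 2, female Day 2, male Day 3 and female Day 3 down to male Day 0. The gaps between male Day 5 and female Day 5 (23.2 CPM) and between female Day 3 and male Day 0 (13.4 CPM) exceeded the larger SD.

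Levels of the members were compared with one another in the deposited FPKM, which is per length. Gadd45g was the highest and Gadd45b the lowest member in 29 of 32 libraries, and in the other 3 libraries Gadd45b exceeded Gadd45a. The summed FPKM of the family was 48.8 ± 9.47 (SD, n = 4) in male Day 0 and 161 ± 61.3 in female Day 0 mice. It was 70.2 ± 15.6 and 68.2 ± 8.05 at Day 2, 66.2 ± 12.1 and 65.7 ± 16.0 at Day 3, and 120.5 ± 21.0 and 91.3 ± 20.3 at Day 5, in male and female mice respectively. Most of this sum is Gadd45g, which was selected for its difference between the sexes. The deposited FPKM was not scaled by total counts alone. In male Day 5 mouse 2, 169 reads of Gadd45a among 20586015 counts gave 14.8 FPKM. In male Day 0 mouse 1, 462 reads among 16502107 counts gave 13.6 FPKM. The male Day 5 sum thus depended on the scaling, as the change of Gadd45g did, and a sum without scaling was not computed. Without the library labelled male Day 5 mouse 1 the male Day 5 sum was 131 ± 0.659 (n = 3), with mean shares of 14.1%, 13.2% and 72.6% for Gadd45a, Gadd45b and Gadd45g. Gadd45g accounted for 66.2% ± 7.98 of that sum in male Day 0 and for 87.9% ± 2.53 in female Day 0 mice, and for 68.3% to 79.7% in the means of the later groups. The mean share of Gadd45b was 5.72% in male and 3.57% in female Day 0 mice and 12.4% and 12.8% at Day 5.

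**Figure D4:**
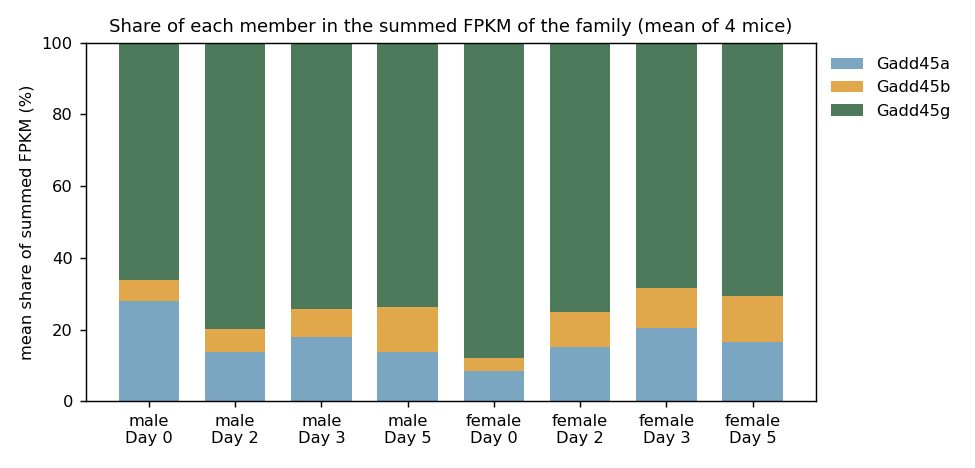
Mean share (%) of Gadd45a, Gadd45b and Gadd45g in the summed FPKM of the family in each of the 8 groups (stacked bars, mean of 4 mice). The share of Gadd45g is largest in female Day 0 mice (87.9%) and smallest in male Day 0 mice (66.2%), and that of Gadd45b is 12.4% and 12.8% at Day 5.

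The ratio of Gadd45b to Gadd45a within a library does not depend on the library's size or scaling. In FPKM it averaged 0.215 ± 0.132 (SD, n = 4) in male Day 0 mice and 0.899 ± 0.317 in male Day 5 mice. All 4 Day 5 males (0.537 to 1.23) lay above the highest Day 0 male (0.407), and the Day 5 mean was 0.952 ± 0.366 (n = 3) without the library labelled male Day 5 mouse 1. On the log2 scale the difference from Day 0 in male mice was 1.26, 1.17 and 2.12 for the 3 later days (exact permutation test, two-sided, p = 0.0857, 0.0571 and 0.0286, adjusted over 6 comparisons 0.129 each). In female mice, whose Day 0 ratio was 0.463 ± 0.250, it was 0.68, 0.37 and 0.91 (exact p = 0.257, 0.429 and 0.0857, adjusted 0.309, 0.429 and 0.129). The smallest p that 4 mice against 4 allow is 0.0286, and no difference passed after adjustment. Direction was positive in all 6 comparisons, which share their Day 0 mice within each sex.

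Across the 32 libraries, log2 CPM of Gadd45a and Gadd45b had a Pearson r of 0.40, and the r of their deviations from the group means was 0.40 too. For Gadd45b and Gadd45g r was 0.36, and 0.13 within groups, and for Gadd45a and Gadd45g it was 0.18 and 0.23. These points share library, depth and group, and the values are descriptions. Among 15044 other protein-coding genes, the patterns nearest to Gadd45a were those of Cnbp, Npm1 (nucleophosmin, a binding partner of Gadd45a) and Rsl1d1, all with r = 0.79 over 32 libraries. Over the 24 libraries of Day 0, Day 2 and Day 3 their r was 0.76, 0.77 and 0.80, at ranks 26, 24 and 13, and Brix1 was nearest (r = 0.88). Nearest to Gadd45b were the sulfotransferase gene Sult1a1 (r = 0.86), the small Maf transcription factor gene Maff (r = 0.86) and Fam129b (r = 0.84), and without Day 5 these were 0.74, 0.82 and 0.72, at ranks 52, 7 and 72. Without Day 5 the nearest to Gadd45b were Gc (r = 0.84), Cyp4a14 (r = 0.84) and Cyp2d22 (r = 0.83). Nearest to Gadd45g were Sdccag8 (r = 0.79), Lhpp (r = 0.75) and Car11 (r = 0.74), which had 0.82, 0.73 and 0.78 without Day 5, at ranks 1, 14 and 3.

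Around the family, 64 genes on 4 lists were read in the same fits: 16 partners of Gadd45 proteins, 20 kinases, phosphatases and targets of the p38 and JNK arm, 16 regulators of Gadd45 transcription and 12 other growth arrest genes. In male mice 6 rose and 2 fell of 63 tested at Day 2, where 1.81% of all genes passed as higher and 1.35% as lower. At Day 3 it was 15 and 2 of 63, against 11.4% and 13.1% of all genes, and at Day 5 15 and 4 of 60, against 8.98% and 10.2%. In female mice 4 of 63 rose at Day 2 (0.774% of all genes higher, 1.16% lower), 2 of 63 at Day 3 (1.26% and 4.28%) and 2 of 62 at Day 5 (0.185% and 0.0738%). The median log2 fold change over the listed genes was 0.31, 0.25 and 0.38 in male and 0.32, 0.35 and 0.25 in female mice, and that over all genes tested was between 0.025 and 0.039. These counts rest on single mice, as 37 of 48 fits without 1 mouse moved them by over 1.5 times. In female mice at Day 2 the count was 1 without Day 0 mouse 1 and 26 without Day 0 mouse 4, at Day 3 it was 0 and 26, and at Day 5 it was 1 and 12, without the same mice. In male mice it ran from 0 (without Day 0 mouse 1) to 17 (without Day 0 mouse 3) at Day 2, from 7 (without Day 3 mouse 3) to 27 (without Day 0 mouse 3) at Day 3, and from 5 (without Day 0 mouse 2) to 20 (without Day 0 mouse 3) at Day 5. Without the library labelled male Day 5 mouse 1, 20 listed genes passed in male Day 5 mice, 17 of them among the 19 that passed with it and in the same direction. The shifts in mitochondrial share and marker sums given for Gadd45b at male Day 5 stood beside these calls too. Their part in the values of the listed genes was not tested. Of the 52 calls of listed genes over the 6 comparisons, 13 held in all 8 fits that left out 1 mouse and 39 were lost in at least 1 of them. The 13 were Cdkn1a at female Day 2 and Day 5 and male Day 3 and Day 5, Dusp1 and Egr1 at male Day 3 and Day 5, Atf4, Gadd45gip1, Jun and Mdm2 at male Day 3, and Ppp1r15a at male Day 5.

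Among the partners, Cdkn1a, which encodes p21, had the largest rise. It ran from 8.30 to 12.8 CPM in male and from 7.54 to 19.2 CPM in female Day 0 mice. In female mice it was 87.9 to 358 CPM at Day 2, 21.99 to 347 CPM at Day 3 and 107 to 292 CPM at Day 5, all above the Day 0 range. Its log2 fold change in female mice was 4.32 (adjusted p = 0.00400), 4.20 (adjusted p = 0.0465) and 3.85 (adjusted p = 0.00427, edgeR). In male mice it was 3.09 (adjusted p = 0.00352) at Day 3 and 3.19 (adjusted p = 0.00920) at Day 5. At Day 2 it was 3.33 and did not pass (adjusted p = 0.0535), with mice from 10.4 to 257 CPM.

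The other partners moved less. Gadd45gip1, a mitochondrial ribosomal protein named for its binding to Gadd45 proteins, fell in male mice by 0.96, 1.13 and 1.02 on the log2 scale (adjusted p = 0.0446, 0.00731 and 0.0276), and in female mice the values were -0.90, -1.23 and -0.75 (adjusted p 0.149, 0.0505 and 0.299). Tet2, a dioxygenase of 5-methylcytosine, rose at Day 3 (1.87, adjusted p = 0.0422) and the nuclear receptor gene Ppara at Day 2 (1.78, adjusted p = 0.0387) and Day 3 (1.71, adjusted p = 0.0132), both in male mice. The nuclease gene Ercc5 rose in male mice at Day 3 (0.89, adjusted p = 0.0169) and Day 5 (0.97, adjusted p = 0.0341), and the receptor gene Rxra fell by 1.004 on the log2 scale at Day 5. Map3k4, the kinase that Gadd45 proteins activate, ran from 19.4 to 48.5 CPM over all groups and passed in none of the 6 comparisons (log2 fold changes from -0.48 to 0.43, adjusted p from 0.112 to 0.890). Pcna did not pass either (0.015 to 0.43), nor did Cdk1 (-1.09 to 0.37) and Ccnb1 (-0.55 to 1.27), which were near or below 3 CPM in their group means. Of the 16 partners, 1 rose and 1 fell in male mice at Day 2, 5 and 1 at Day 3, and 2 and 2 at Day 5, where 1.81% and 1.35%, 11.4% and 13.1%, and 8.98% and 10.2% of all genes did. In female mice 1 of the 16 partners, Cdkn1a, rose at each day, where 0.774%, 1.26% and 0.185% of all genes rose.

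In the p38 and JNK arm, 2 of 20 genes rose in male mice at Day 2 (1.81% of all genes), 3 of 20 at Day 3 (11.4% of all genes, a share near that of the list), and 5 of 19 at Day 5 (8.98% of all genes), where 1 fell (10.2% of all genes). Dusp1, a phosphatase that switches off p38 and JNK, rose from 43.8 ± 9.59 CPM (SD, n = 4) to 140.4 ± 27.4 CPM at Day 2 (log2 fold change 1.69, adjusted p = 0.0145), and its values at Day 3 and Day 5 were 1.54 (adjusted p = 0.00349) and 1.47 (adjusted p = 0.0141). Jun, the transcription factor downstream of JNK, rose by 1.25, 1.48 and 1.19 at Day 2, Day 3 and Day 5 (adjusted p = 0.0446, 0.0108 and 0.0306). The kinase gene Mapk12 rose (1.45) and Mapk14, which encodes p38 alpha, fell by 0.87 on the log2 scale in male mice at Day 5. In female mice 0 of 20 genes passed in edgeR at each of the 3 days, with 5, 4 and 2 genes at an unadjusted p under 0.05 and 2, 2 and 0 called by DESeq2, where 0.774%, 1.26% and 0.185% of all genes passed as higher and 1.16%, 4.28% and 0.0738% as lower. In female Day 0 mice Dusp1 ran from 41.6 to 253 CPM and Jun from 14.9 to 193 CPM, a wider range than in male Day 0 mice (32.8 to 52.3 and 21.1 to 48.8 CPM). Whether the sexes differed on these lists was not tested.

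Of the regulators, 3 of 15 rose and 1 fell in male mice at Day 2, 5 and 1 of 15 at Day 3, and 3 and 0 of 14 at Day 5, while 2, 1 and 1 rose in female mice at Day 2, Day 3 and Day 5. Of all genes, 1.81%, 11.4% and 8.98% rose and 1.35%, 13.1% and 10.2% fell in male mice, and 0.774%, 1.26% and 0.185% rose in female mice. Mdm2, the p53 target that degrades p53, rose in all 6 comparisons, by 1.22, 1.35 and 0.99 in male and by 1.86, 1.94 and 1.71 in female mice on the log2 scale (adjusted p from 0.00452 to 0.0465, edgeR). Egr1, an immediate early transcription factor, rose in male mice by 2.34, 2.91 and 2.97 (adjusted p = 0.0446, 0.0100 and 0.0104). Atf4, the transcription factor of the integrated stress response, fell in male mice by 0.83 at Day 2 and by 0.75 at Day 3 on the log2 scale (adjusted p = 0.0350 and 0.00922). The male Day 3 call of Mdm2 held in all 8 fits without 1 mouse. The other 5 calls were each lost without Day 0 mouse 1 or Day 0 mouse 2 of the same sex, and held in 3 of 8 fits at male Day 2, in 1 at male Day 5 and in 4, 2 and 3 in female mice at Day 2, Day 3 and Day 5. Without the library labelled male Day 5 mouse 1, Mdm2 at Day 5 was at 0.81 (adjusted p = 0.0552). Over all these fits the log2 fold change of Mdm2 lay between 0.81 and 2.21 and the adjusted p reached 0.168. The forkhead gene Foxo3 rose in male mice at Day 2 (1.15, adjusted p = 0.0310) and Day 3 (1.06, adjusted p = 0.0173) and in female mice at Day 2 (1.02, adjusted p = 0.0499).

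The list of other growth arrest genes had 0 of 12 passing in male mice at Day 2 (edgeR, with 5 at an unadjusted p under 0.05 and 4 called by DESeq2). Of all genes, 1.81% passed as higher and 1.35% as lower there, so this count is close to the background. Of the list, 2 rose at Day 3 (11.4% of all genes), and 5 rose and 1 fell of 11 at Day 5 (8.98% and 10.2%). Ppp1r15a, once named Gadd34 and encoding a phosphatase subunit that restores translation, rose in male mice at Day 5 (1.35, adjusted p = 0.0123), as did Gas1 (1.32), and the actin-associated gene Gas2 fell by 2.33 on the log2 scale (-3.38 without the library labelled male Day 5 mouse 1). Gas6, a ligand of TAM receptors, and Sesn3, a sestrin, rose in male mice at Day 3 (0.76 and 0.70), and Sesn3 also at Day 5 (0.86, adjusted p = 0.0282). Ddit3, once named Gadd153 and encoding CHOP, passed in no comparison, with log2 fold changes from -0.70 to 1.09, but without that library it passed in male Day 5 mice (1.32, adjusted p = 0.0144). In female mice Sesn2 rose at Day 2 (1.29, adjusted p = 0.0419), the 1 call among 12 genes (0.774% of all genes rose and 1.16% fell). In edgeR, 0 of 12 genes passed at Day 3 and at Day 5, with 1 and 3 genes at an unadjusted p under 0.05 and 1 gene called by DESeq2 at each day. Shares of all genes were 1.26% higher and 4.28% lower at Day 3 and 0.185% and 0.0738% at Day 5, so a count of 0 among 12 genes is close to the background.

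**Figure D5:**
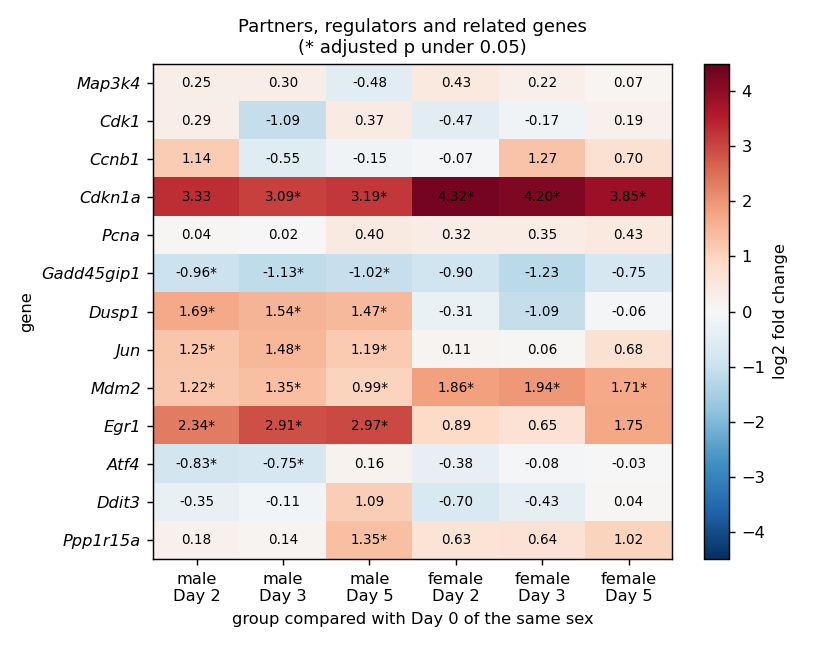
Log2 fold change against Day 0 of the same sex for 13 listed genes (rows) in the 6 comparisons (columns), on a colour scale from blue (lower) to red (higher). An asterisk marks an adjusted p under 0.05 in edgeR, as for Mdm2 in all 6 comparisons and for Map3k4, Cdk1, Ccnb1, Pcna and Ddit3 in none.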

How the data were processed

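Kidney RNA of 32 mice was sequenced by the authors, who deposited a table of raw counts for 54532 genes and one of FPKM values, which are per gene length, for the same libraries. Samples were grouped by sex and day from the labels. The labels' processing notes name HTSeq, DESeq2 and GRCm39 (mm39), the study's methods name GRCm38, and start and end of 98.3% of 54495 shared genes equal those of the GRCm38 annotation. The aligner, annotation release and strandedness are not given in the sources used here.

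Tests on the counts used edgeR 4.0.16 under R 4.3.3 (filterByExpr, TMM, robust dispersions, quasi-likelihood test) in 13 contrasts. These were 6 of a day against Day 0 within a sex, 4 of male against female mice and 3 of the difference between the sexes in the change. Each was fitted on its own groups with Benjamini-Hochberg adjustment over all genes tested, and a gene passed at an adjusted p under 0.05. The SE of a log2 fold change is its absolute value divided by the square root of the F statistic of that test. For Gadd45g it therefore holds the same information as the test, and it is given as a description only. The CPM used TMM factors over 32 libraries and 18220 genes, log2 CPM a prior count of 2, and the FPKM ratio a pseudocount of 0.1. Other settings tried were the DESeq2 1.42.0 Wald test, its size factors within edgeR, a filter of 10 counts in every library or none, a single model of all 8 groups, a block for mouse number, no mitochondrial genes and each mouse left out. They also included an absolute log2 fold change over 1.5, after the fold change limit of the study, whose log base and sign are not stated. For the members, total counts with no scaling factor were added after the values were seen. Scripts were tested on simulated data. No 2 libraries were identical. The p-values measure only the spread between mice of a group.

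The members, gene lists and tests were chosen with earlier results of these data known. Named from each list were at most 2 rising and 2 falling genes per comparison with the largest changes, and Map3k4, Cdk1, Ccnb1, Cdkn1a, Pcna, Mdm2, Ddit3 and Ppp1r15a in any case. The 3 genes nearest to each member by Pearson r were named too. Promoter sequences are from RefSeq. Depth per library was 16502107 to 35961325 counts.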

Additional observations from a re-analysis of the deposited data

Results flagged for a closer look

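In 2 of 24 sets of 4 mice (3 genes by 8 groups) a single mouse stood apart from the other 3 by more than Dixon's limit of 0.829 of the group's range, and chance flags about 1 in 20 sets. Female Day 5 mouse 4 had 13.9 CPM of Gadd45b where the other 3 had 19.5 to 20.4 CPM. Female Day 3 mouse 1 had 68.9 CPM of Gadd45g where the others had 45.7 to 49.2 CPM.

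For Gadd45g every male mouse of each later day lay above the male Day 0 mean and every female mouse below the female Day 0 mean on the log2 scale. The differences between the sexes in the change from Day 0 were 2.23, 2.26 and 2.52 on the log2 scale at Day 2, Day 3 and Day 5. They were not tested, since Gadd45g was selected for this pattern.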

How the results depend on the processing

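The call of Gadd45b in male Day 5 mice (2.49) held under 7 of 8 other settings and all 8 fits without 1 mouse. With total counts and no scaling factor, chosen after seeing the data, it was 1.13 (adjusted p = 0.0796, range over its alternatives 4.07e-07 to 0.0796), while Gadd45b in male Day 3 mice passed at 1.26. Under that scaling Gadd45g moved to -1.28 in female Day 3 and 0.096 in male Day 5 mice, and Gadd45a turned direction in female Day 2 (0.11), female Day 5 (-0.045), male Day 3 (0.072) and male Day 5 mice (-1.02). The median of all genes moved to between -1.15 and 0.40 under it. DESeq2 called Gadd45a in male Day 2 (-0.51), and Gadd45b in male Day 3 (0.93) and female Day 5 mice (1.10), and 1 fit over all 8 groups called the last too (1.09).

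Without 1 mouse Gadd45a ranged from -0.069 to 0.31 in female Day 3, from -0.62 to -0.44 in male Day 2, from -0.090 to 0.23 between the sexes at Day 0 and from -0.39 to 0.053 at Day 2, and from -0.45 to 0.012 and -0.10 to 0.21 for the sex difference in the change to Day 2 and Day 5. Gadd45b ranged from 0.95 to 1.31 in female Day 5, from 0.74 to 1.20 in male Day 3 and from -0.81 to -0.38 between the sexes at Day 3. The counts of listed genes ranged from 1 to 26, 0 to 26 and 1 to 12 in female and from 0 to 17, 7 to 27 and 5 to 20 in male mice at Day 2, Day 3 and Day 5.

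The main counts of listed genes were 4, 2 and 2 in female and 8, 17 and 19 in male mice. With 1 fit over all 8 groups they were 15, 13 and 5 in female mice and 14 in male Day 2 mice. DESeq2 gave 7 and 12 in female Day 2 and Day 3 and 21 and 26 in male Day 2 and Day 3 mice. The fold change rule left 2 in female Day 2 and 3, 5 and 3 in male mice, and the filter of 10 counts gave 6 in female Day 3 mice. Over all genes that rule left 234 of 16541 in female Day 2 mice. In male mice it left 115 of 16051, 591 of 15908 and 1127 of 14969 at Day 2, Day 3 and Day 5. The filter of 10 counts gave 1678 of 13774 genes in female Day 3 mice. Mouse numbers were not used as pairs in the main fits. Of 24 same-numbered pairs, 5 had r over 0.1 (-0.160 to 0.286). Pairs with different numbers were not compared, so these values cannot decide whether the numbers pair the samples. With the replicate block, listed genes were 1 and 0 in female Day 2 and Day 3 and 0 and 2 in male Day 2 and Day 3 mice, Gadd45b in male Day 5 mice was 2.47 (adjusted p = 0.0164), and no call of a member changed. The cause of these shifts was not tested. Over all genes edgeR called 3901 in male Day 3 mice, the replicate block 90, and in female Day 3 mice 945 and 0 (4236 at an unadjusted p under 0.05, 3629 by DESeq2). At Day 2 the replicate block called 5 genes in male and 52 in female mice.

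Over all genes edgeR called 507, 3901 and 2878 genes in male and 320, 945 and 42 in female mice at Day 2, Day 3 and Day 5, DESeq2 2943, 5589 and 4251 and 2146, 3629 and 732, and 1 fit over all 8 groups 2347, 3560 and 5666 and 3976, 4268 and 1994. With no scaling factor, 1065 genes were higher and 106 lower in male Day 2 (290 and 217 by TMM), 2956 and 784 in male Day 3 (1814 and 2087), 90 and 4785 in male Day 5 (1344 and 1534), 134 and 53 in female Day 2 (128 and 192), 0 and 0 in female Day 3 (215 and 730 by TMM in edgeR, while with no scaling factor 6018 genes had an unadjusted p under 0.05 and DESeq2 called 3629) and 65 and 126 in female Day 5 mice (30 and 12).

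Male libraries held 47 to 133 reads of Gadd45b at Day 0 and 116 to 248 at Day 5, which limits precision.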
